A study of Mus musculus with 4 samples.

Results

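Bcl2, Bcl2l1, Mcl1, Bax, Bak1, Bbc3, Pmaip1, Bid, Bcl2l11 and Bcl2l15 are 10 genes of the Bcl2 family, which regulates mitochondrial apoptosis. They were taken by symbol from the 32285 genes counted in single cells of mouse mammary organoids, and each was found once. The organoids were grown from glands of wild-type mice or of mice with a germline truncating mutation in 1 Brca2 allele (Brca2mut/WT), so the mutation is carried by every lineage of the mutant cultures. Organoids of each genotype were either unchallenged (control) or given hydroxyurea (HU), which stalls DNA replication, at regular intervals. Each of the 4 conditions (control or HU, in wild-type or Brca2mut/WT organoids) was 1 10x Genomics library, which the labels describe as 2 replicates. All of them were organoid cultures dissociated with TrypLE. The paper describes organoids frozen at an early and a late passage, then thawed and regrown in culture before dissociation. How many HU exposures the cells of a library had is not stated in its labels. The age of the mice, the passage of each library and a key to the 4 antibody tags on the cells are not stated in the labels of these libraries.

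Proteins of this family decide whether the outer mitochondrial membrane is opened to release cytochrome c. Bcl2, Bcl-xL (the product of Bcl2l1) and Mcl1 hold the pore-forming effectors Bax and Bak in check, while the BH3-only proteins Puma (Bbc3), Noxa (Pmaip1), Bid and Bim (Bcl2l11) bind those guardians or the effectors. Bax, Bbc3 and Pmaip1 are classical transcriptional targets of p53, and in the mammary gland members of this family govern the loss of secretory cells at involution.

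The proteins share the BH3 segment through which they bind one another, and its coding sequence is shown here because it is what makes these genes 1 family. A search of each coding sequence for leucine, any 3 residues, glycine or alanine, and aspartate found this core exactly once in each of the 9 genes searched (Pmaip1 was not searched). The 30-base windows below were read from GRCm38 with the GENCODE M21 annotation, all lie in coding exons and run in the direction of the gene, and capitals mark the 18 bases of the core.
Bcl2, minus strand of chr1:106712578-106712607, exon 1: ctgaccCTCCGCCGGGCTGGGGATgacttc
Bcl2l1, minus strand of chr2:152829700-152829729, exon 2: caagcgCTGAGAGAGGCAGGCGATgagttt
Mcl1, plus strand of chr3:95659430-95659459, exon 1: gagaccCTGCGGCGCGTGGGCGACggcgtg
Bax, minus strand of chr7:45466000-45466029, exon 3: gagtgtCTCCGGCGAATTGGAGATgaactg
Bak1, minus strand of chr17:27022534-27022563, exon 4: cggcagCTTGCTCTCATCGGAGATgatatt
Bbc3, plus strand of chr7:16313767-16313796, exon 3: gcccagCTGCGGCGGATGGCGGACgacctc
Bid, minus strand of chr6:120897292-120897321, exon 4: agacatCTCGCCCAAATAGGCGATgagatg
Bcl2l11, plus strand of chr2:128147144-128147173, exon 3: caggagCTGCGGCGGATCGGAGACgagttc
Bcl2l15, plus strand of chr3:103833391-103833420, exon 2: ggccgcCTTCGAATACTGGGTGATcagttc
The core of Bbc3 carries alanine where the other 8 carry glycine. Bcl2l15, the least studied of these genes, holds the same core as the guardians and effectors.

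Unique molecular identifier (UMI) counts of 33268 cell barcodes were used. Where 1000 to 6000 genes were detected and mitochondrial UMIs stayed below 5%, the cell was kept, which left 17360 cells, 3293 to 5312 a library. Median UMIs per kept cell were 24180 to 26893, and 129 barcode sequences occurred in more than 1 library. Cells with at least 500 CPM (UMIs of the gene per 1000000 UMIs of the cell) of Krt14 were taken as basal, cells with at least 300 CPM of Areg as hormone receptor-positive (HR+) luminal and cells with under 300 CPM of each as HR- luminal, which gave 2217, 569 and 14008 cells; 566 cells fell outside these gates. The gates matched other markers in their sums. Summed basal markers were 3847 to 4422 CPM in basal cells against 117 to 159 CPM in HR- luminal cells. Summed HR+ markers were 1507 to 1728 CPM in HR+ cells against 110 to 116 CPM in HR- cells. Summed HR- markers were 4683 to 5755 CPM in HR- cells against 638 to 1050 CPM in HR+ cells. Most of this HR- sum was Mfge8 (mean 4457 CPM in HR- and 721 CPM in HR+ cells). Lalba, Cd14, Elf5 and Kit were also higher in HR- cells, whereas Aldh1a3 was higher in HR+ cells (43.8 against 25.2 CPM). Immune markers summed to at most 4.98 CPM and endothelial markers to at most 2.13 CPM, and the 703 to 1661 CPM of the stromal list in HR+ cells came almost wholly from Dcn, with Col3a1 and Lum at 0.

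All values below are UMIs of a lineage summed within a library, as CPM, so cells with more RNA of a gene and more cells with any cannot be told apart. Lineages were compared across the 4 libraries with edgeR's quasi-likelihood test and the library as a block, and p-values were adjusted over all genes tested (Benjamini-Hochberg). The antibody tags split every library into cells with different levels of these genes. Each lineage comparison was therefore repeated on the 38 sums of library, tag and lineage with at least 10 cells. Of these sums, 16 were of HR-, 15 of basal and 7 of HR+ cells, so HR+ cells were covered least. The result of this repeat is given where it changed a call. Of 13885 genes, 64.6% differed between HR- and basal cells, 64.0% between HR+ and HR- cells and 53.2% between HR+ and basal cells at an adjusted p under 0.05. In the fit with the tags apart these shares were 66.1%, 54.4% and 47.6%, and there cells of 1 library share their capture, so its p-values are too small where libraries differ. By library sums 8, 10 and 8 of the 10 family genes differed in the same comparisons. With the tags apart Mcl1, Bax, Bbc3 and Bcl2l11 were no longer called between HR+ and HR- cells. That brings the count of this comparison near the 54.4% of all genes. Between HR- and basal cells Mcl1 and Bak1 were lost and Bcl2l1 was gained, and between HR+ and basal cells Bid was lost.

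The clearest lineage difference among the guardians was in Bcl2, which blocks Bax and Bak at the mitochondrion. HR- luminal cells held 90.2, 79.9, 101 and 92.4 CPM of Bcl2 in the libraries of wild-type control, wild-type HU-treated, Brca2mut/WT control and Brca2mut/WT HU-treated organoids (90.9 ± 8.67 CPM, SD, n = 4 libraries). Basal cells held 23.9, 22.5, 24.7 and 22.5 CPM and HR+ luminal cells 15.6, 9.71, 7.92 and 12.1 CPM. The 3 lineages did not overlap in any library, in the order HR-, basal, HR+. On the log2 scale the edgeR difference was 2.09 (SE 0.10, adjusted p = 1.61e-09) for HR- over basal and -3.16 (SE 0.12, adjusted p = 4.42e-10) for HR+ against HR-. HR+ cells were also below basal cells, by -1.07 (SE 0.14, adjusted p = 3.07e-05), and all 3 calls held with the tags apart. The same order appeared in the share of cells with a Bcl2 UMI after thinning each cell to 5000 UMIs, at 30.5 to 35.4% of HR-, 10.6 to 11.5% of basal and 3.54 to 6.96% of HR+ cells. Without thinning the shares were 70.4 to 73.5%, 33.4 to 35.1% and 15.3 to 29.0%.

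The guardian Bcl2l1, which encodes Bcl-xL, had the opposite pattern between the luminal lineages. It stood at 68.0, 78.2, 97.6 and 87.1 CPM in HR+ cells of the 4 libraries in the same order, kept below, against 30.5, 34.5, 29.2 and 33.1 CPM in HR- cells. Basal cells held 29.1, 25.5, 32.0 and 31.9 CPM, a range that overlaps that of HR- cells. HR+ cells were higher by 1.19 (SE 0.11, adjusted p = 9.85e-07) than HR- cells and by 1.44 (SE 0.12, adjusted p = 6.46e-07) than basal cells on edgeR's log2 scale. HR- over basal was 0.25 (SE 0.11, adjusted p = 0.054) by edgeR, which passed at 0.37 (SE 0.10, adjusted p = 0.00195) with the tags apart.

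Mcl1, a short-lived guardian on which mammary epithelial survival depends, differed little between lineages. Its means were 106 ± 1.73, 148 ± 6.24 and 131 ± 14.7 CPM (SD, n = 4 libraries) in HR-, HR+ and basal cells. HR+ exceeded HR- cells by 0.30 (SE 0.06, adjusted p = 0.00127) and HR- cells were below basal cells by -0.16 (SE 0.06, adjusted p = 0.0406) by edgeR. With the tags apart neither of these calls passed, at 0.16 (adjusted p = 0.0622) and -0.03 (adjusted p = 0.566). The difference between HR- and basal cells was also lost without the wild-type control (-0.14, adjusted p = 0.117), the wild-type HU (-0.10, adjusted p = 0.246) or the Brca2mut/WT HU library (-0.17, adjusted p = 0.0795). HR+ against basal cells did not pass at 0.14 (SE 0.07, adjusted p = 0.0898).

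**Figure D1:**
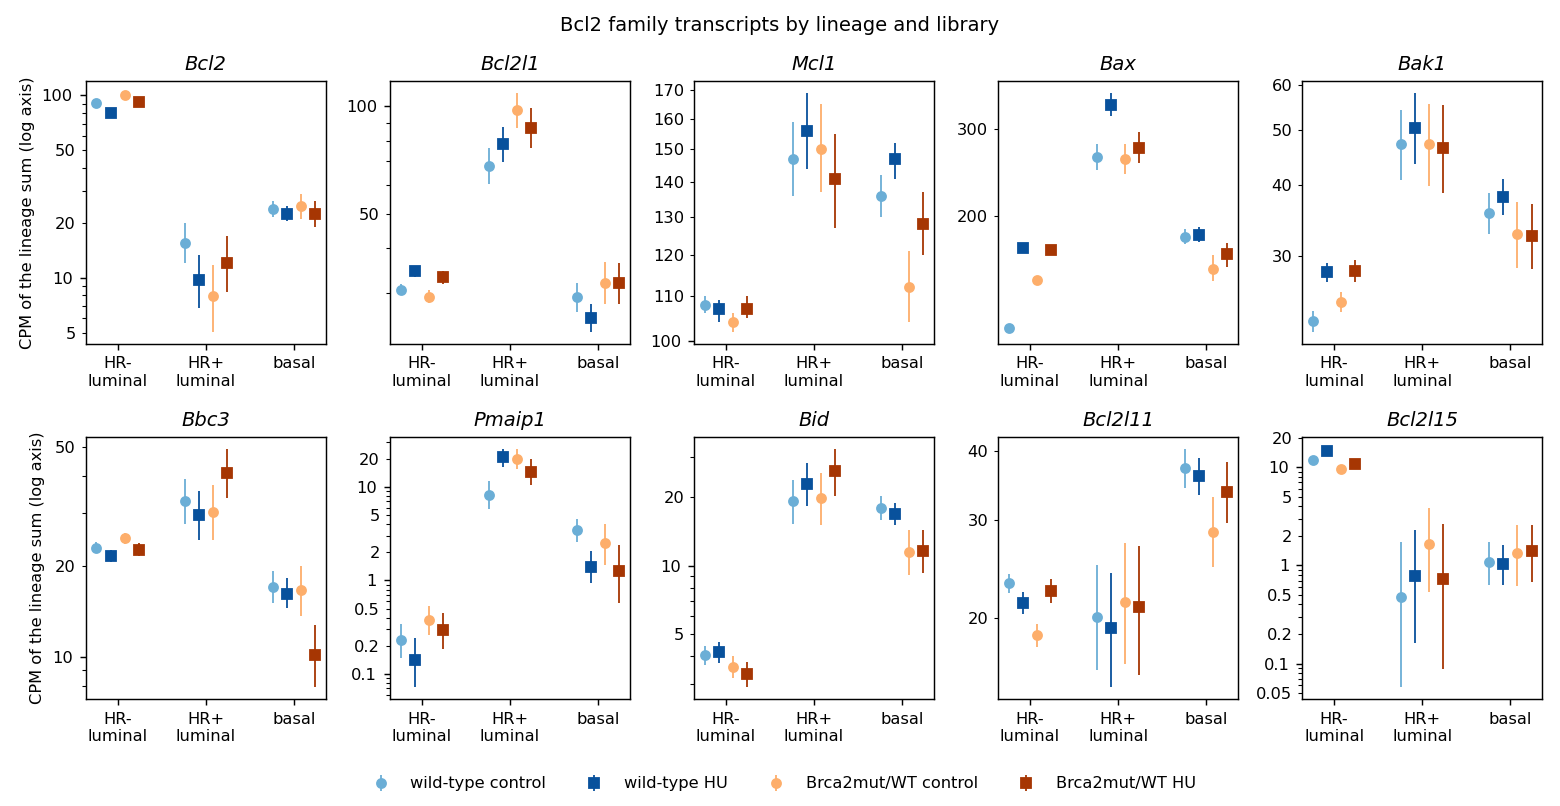
Level of each gene (CPM of the lineage's UMIs, log axis whose range differs between genes) in HR- luminal, HR+ luminal and basal cells of the 4 libraries; points are libraries and bars exact 95% Poisson intervals, which cover counting error only. Bcl2 and Bcl2l15 were highest in HR- cells in every library, whereas Pmaip1 ran from 0.14 to 0.381 CPM in HR- cells and from 8.29 to 20.7 CPM in HR+ cells.

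Both effectors were highest in HR+ cells by library sums. Bax (ENSMUSG00000003873) held 264, 337, 261 and 275 CPM in HR+ cells against 118, 172, 148 and 170 CPM in HR- and 181, 183, 156 and 167 CPM in basal cells. The HR+ values lay above all others, and the HR- and basal values overlapped. The edgeR difference of HR+ over HR- cells was 0.73 (SE 0.09, adjusted p = 1.97e-05) and of HR+ over basal cells 0.67 (SE 0.09, adjusted p = 7.24e-05), while HR- against basal cells gave -0.06 (SE 0.09, adjusted p = 0.591). With the tags apart the difference between HR+ and HR- cells was 0.26 (SE 0.15, adjusted p = 0.155) and was no longer called, HR+ over basal cells stayed called at 0.50 (adjusted p = 0.00915), and HR- against basal cells turned to 0.24 (adjusted p = 0.0564). Of 348 HR+ cells with a single tag, 28.7% carried tag 2 and 57.5% tag 4, compared with 14.9% and 9.56% of 12491 HR- cells, and HR- cells of those tags had the higher Bax levels given below.

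Bak1, which forms mitochondrial pores alongside Bax, stood at 47.8 ± 1.75 CPM in HR+, 34.8 ± 2.62 CPM in basal and 26.1 ± 2.51 CPM in HR- cells (SD, n = 4 libraries), with no overlap between the lineages. By edgeR HR+ cells exceeded HR- cells by 0.70 (SE 0.08, adjusted p = 5.19e-06) and basal cells by 0.41 (SE 0.08, adjusted p = 0.00102), and both calls held with the tags apart. HR- cells were lower than basal cells by -0.29 (SE 0.07, adjusted p = 0.0036), which missed the threshold with the tags apart at -0.15 (adjusted p = 0.0583).

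Among the BH3-only genes, Pmaip1 and Bid were most unequal. Pmaip1, a p53 target whose product Noxa binds Mcl1, held 8.29, 20.7, 20.1 and 14.6 CPM in HR+ cells, 3.46, 1.41, 2.53 and 1.26 CPM in basal cells and 0.231, 0.14, 0.381 and 0.296 CPM in HR- cells. HR+ exceeded HR- cells by 5.76 (SE 0.41, adjusted p = 2.02e-07) and basal cells by 2.79 (SE 0.39, adjusted p = 0.000106) on edgeR's log2 scale, and HR- cells were below basal cells by -2.97 (SE 0.43, adjusted p = 8e-05). After thinning, 3.80 to 11.5% of HR+ cells had a Pmaip1 UMI against 0.347 to 1.26% of basal and 0.0300 to 0.235% of HR- cells, so the level in HR- cells is that of a gene near the limit of these counts.

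Bid, the BH3-only protein that links death receptors to mitochondria, held 19.2, 22.8, 19.8 and 26.0 CPM in HR+ cells and 4.02, 4.15, 3.57 and 3.32 CPM in HR- cells. Basal cells held 18, 16.9, 11.5 and 11.6 CPM, below HR+ cells in all 4 libraries. The edgeR difference was 2.35 (SE 0.15, adjusted p = 2.81e-08) for HR+ over HR- and -1.82 (SE 0.14, adjusted p = 1.06e-07) for HR- against basal cells. HR+ over basal cells gave 0.53 (SE 0.15, adjusted p = 0.01), which missed the threshold with the tags apart at 0.32 (adjusted p = 0.152), without the Brca2mut/WT control at 0.47 (adjusted p = 0.0545) and without the Brca2mut/WT HU library at 0.36 (adjusted p = 0.0702).

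Bbc3, which encodes the p53 target Puma, stood at 33.5 ± 5.21 CPM in HR+, 23.0 ± 1.33 CPM in HR- and 15.0 ± 3.30 CPM in basal cells (SD, n = 4 libraries). All 3 edgeR differences passed, with 0.73 (SE 0.13, adjusted p = 0.000394) for HR- over basal, 1.08 (SE 0.15, adjusted p = 8.95e-05) for HR+ over basal and 0.35 (SE 0.14, adjusted p = 0.0426) for HR+ over HR- cells. The last of these did not pass with the tags apart, at 0.19 (adjusted p = 0.42), nor without the wild-type control (adjusted p = 0.106), the wild-type HU (adjusted p = 0.0924) or the Brca2mut/WT control library (adjusted p = 0.0708).

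Bcl2l11, which encodes Bim, was the only BH3-only gene of the 4 that was highest in basal cells. Basal cells held 37.3, 36.0, 28.6 and 33.7 CPM, HR- cells 23.1, 21.3, 18.6 and 22.4 CPM and HR+ cells 20.1, 19.2, 21.4 and 20.9 CPM. The basal values lay above all luminal values, and the luminal lineages overlapped. HR- cells were below basal cells by -0.54 (SE 0.08, adjusted p = 5.76e-05) and HR+ cells by -0.79 (SE 0.10, adjusted p = 2.59e-05) in edgeR's fit. The edgeR difference of HR+ against HR- cells, -0.25 (SE 0.10, adjusted p = 0.0379), was lost with the tags apart at -0.14 (adjusted p = 0.566), and without the wild-type control, the wild-type HU or the Brca2mut/WT HU library at -0.20 to -0.24.

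Bcl2l15 (ENSMUSG00000044165), a family member of little-known function, was highest in HR- luminal cells by library sums. Those cells held 11.8, 14.7, 9.60 and 10.9 CPM, against 1.09, 1.04, 1.34 and 1.4 CPM in basal and 0.474, 0.788, 1.65 and 0.732 CPM in HR+ cells. The HR+ values rest on 2, 3, 5 and 2 UMIs. HR- exceeded basal cells by 3.50 (SE 0.20, adjusted p = 1.01e-08) and HR+ cells were below HR- cells by -3.93 (SE 0.29, adjusted p = 1.09e-07) by edgeR, whereas HR+ against basal cells gave -0.43 (SE 0.44, adjusted p = 0.484). A Bcl2l15 UMI was found in 4.27 to 5.64% of HR- cells thinned to 5000 UMIs and in 0.157 to 0.694% of basal cells.

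Over the 10 genes the counts of higher and lower calls by library sums were 3 and 5 for HR- against basal, 7 and 3 for HR+ against HR- and 6 and 2 for HR+ against basal cells. The median log2 differences of the 10 were -0.11, 0.53 and 0.47, beside 0.002, -0.045 and -0.037 for all genes tested. Scaling by UMI totals in place of TMM (trimmed mean of M values) moved the all-gene median of HR- against basal cells from 0.002 to -0.133 and that of HR+ against HR- cells from -0.045 to 0.134, with the share of calls that were higher going from 50.2 to 39.3% and from 48.7 to 61.1%.

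Other genes of apoptosis were counted by list. Of 5 further family genes 2 differed between HR- and basal cells and 3 between HR+ and HR- cells, and the 1 other guardian gene tested was called in the first comparison and not in the second, against 64.6% and 64.0% of all genes. Of the other effector and BH3-only genes, 1 was higher and 2 were lower of 4 tested in HR- against basal cells, and all 4 were higher in HR+ than in HR- cells. Bok, an effector-like relative of Bax, stood at 35.5 to 45.7 CPM in basal cells and 0.97 to 1.82 CPM in HR- cells, and HR+ cells exceeded HR- cells by 2.62 by edgeR. Bik, a BH3-only gene of the endoplasmic reticulum, was instead higher in HR- than in basal cells by 2.71 (20.9 to 24.3 CPM against 2.82 to 5.05 CPM). Among 13 apoptosome and caspase genes, 3 were higher and 5 lower in HR- than in basal cells and 4 of 13 differed between HR+ and HR- cells, with cytochrome c (Cycs) at -0.47. Among 8 death receptor genes the counts were 3 and 4, and in HR+ against HR- cells 5 and 1, with the receptor gene Fas at -2.20 and Casp8, the initiator caspase that cleaves Bid, at 1.13.

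Within HR- luminal cells several of the genes differed more between antibody tags than between conditions. Bax in tags 1, 2, 3 and 4 stood at 85.1, 245, 97.9 and 222 CPM in the wild-type control library and at 119, 289, 117 and 306 CPM in the wild-type HU library. The Brca2mut/WT control library held 99.2, 247, 89.1 and 227 CPM and the Brca2mut/WT HU library 136, 340, 115 and 306 CPM. In every library tags 2 and 4 lay above tags 1 and 3, and their ranges over libraries did not overlap. Bcl2l15 ran the other way in the control libraries, at 12.6, 2.31, 15.0 and 2.92 CPM in wild-type and 12.5, 1.26, 14.0 and 5.87 CPM in Brca2mut/WT cells of tags 1 to 4. What the tags stand for is not given, and whether a tag number means the same culture in different libraries is not stated.

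The share of HR- cells carrying each tag differed between libraries, so that the sum over all tags mixes different proportions of these levels. Tag 2 made up 4.79% of tagged HR- cells in the wild-type control, 18.3% in the wild-type HU, 22.2% in the Brca2mut/WT control and 16.8% in the Brca2mut/WT HU library. Tag 4 made up 10.3, 8.06, 13.4 and 5.27% in the same order. Values within each tag are therefore given beside the sums for HU and genotype in HR- cells.

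**Figure D2:**
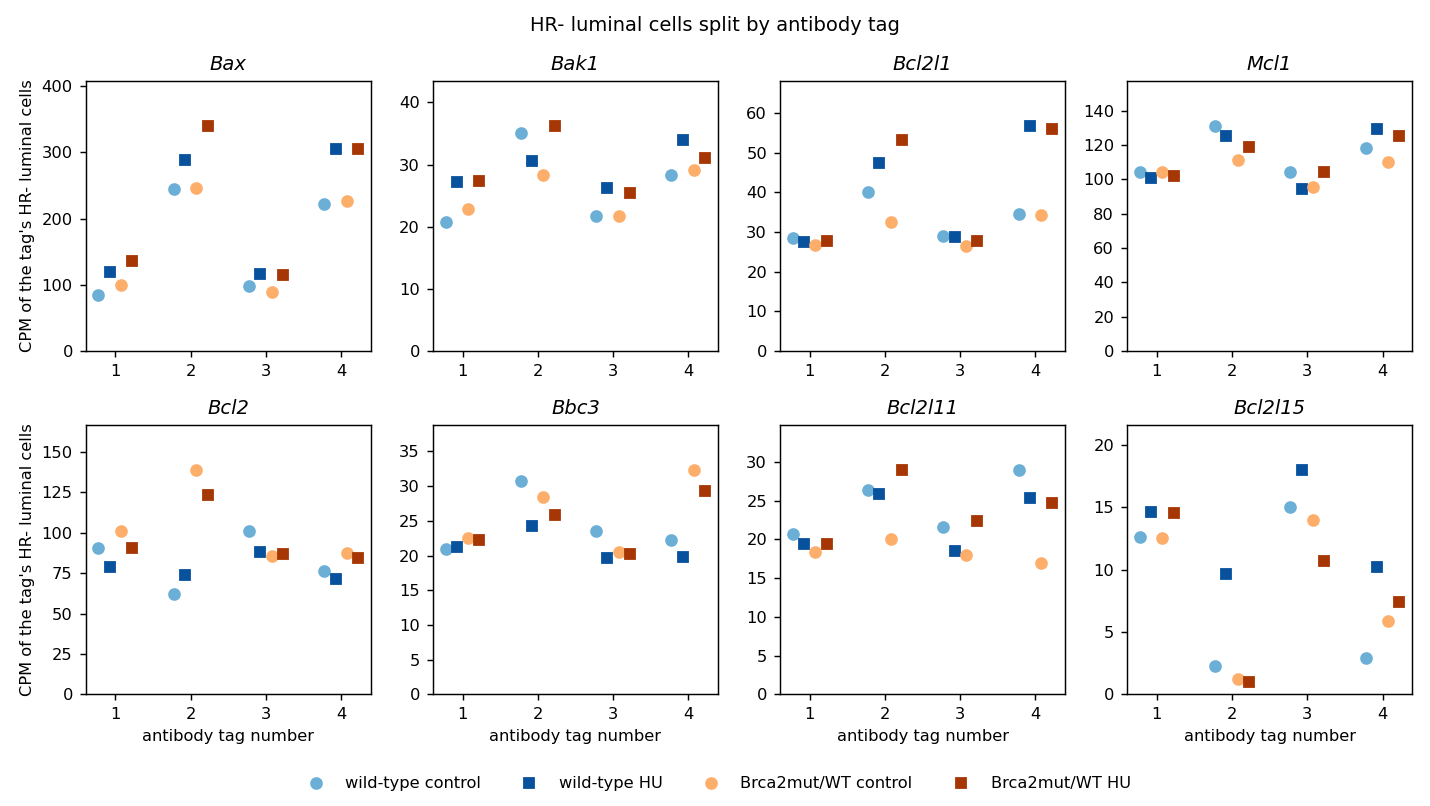
CPM of 8 of the genes in HR- luminal cells that carried a single antibody tag, by tag number and library; each point is the sum over the cells of 1 tag in 1 library, and the axes start at 0. Bax lay between 222 and 340 CPM in tags 2 and 4 and between 85.1 and 136 CPM in tags 1 and 3, with the HU library above the control of its genotype in every tag.

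The question of the series is how repeated replication stress acts on each lineage of each genotype. With the 4 libraries fitted by treatment and genotype, which leaves 1 residual degree of freedom, Bax was the family gene called for HU in HR- luminal cells, where 4.93% of 15613 genes were called. The sums went from 118 to 172 CPM in wild-type and from 148 to 170 CPM in Brca2mut/WT cells, so both HU libraries lay above both controls. Bax rose by 0.37 on edgeR's log2 scale (SE 0.09, adjusted p = 0.0458), and this call was lost without cells of tag 1 (0.34, adjusted p = 0.128), without cells of tag 3 (0.42, adjusted p = 0.0984) and with the looser cell filter (0.33, adjusted p = 0.127). In these settings 1.34%, 3.40% and 0.0116% of all genes were called. With each tag summed apart and the tag as a block (16 sums, 7.37% of genes called) the Bax value was 0.38 (SE 0.04, adjusted p = 0.000166). Those 16 sums come from the same 4 libraries, 4 from each, so this SE and p measure the spread between tags within libraries and are too small for a comparison of conditions.

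Within tags, the HU library held more Bax than the control in 8 of 8 pairs of the same tag number and genotype, by 0.24 to 0.48 on the log2 scale. The sums over tags gave 1.46-fold in wild-type and 1.15-fold in Brca2mut/WT cells, and weighting the 4 tags equally gave 1.28-fold (162 to 208 CPM) and 1.35-fold (165 to 224 CPM). The larger fold in wild-type than in Brca2mut/WT sums was thus not seen once tags were weighted equally.

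The other effector, Bak1, went from 23.1 to 28.1 CPM in wild-type and from 24.9 to 28.2 CPM in Brca2mut/WT HR- cells. Its edgeR value was 0.23 (SE 0.07, adjusted p = 0.0761), and 0.20 (SE 0.06, adjusted p = 0.0419) with the tags apart, under the same limit. HU lay above control in 7 of 8 tag pairs, the exception being tag 2 of the wild type.

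Of the guardians, Bcl2l1 went from 30.5 to 34.5 CPM and from 29.2 to 33.1 CPM with HU (0.17, SE 0.07, adjusted p = 0.155 by edgeR). By tag it held 28.6, 40.1, 29.1 and 34.5 CPM in the wild-type control and 27.4, 47.5, 28.7 and 56.7 CPM in the wild-type HU library. In Brca2mut/WT cells it held 26.7, 32.5, 26.4 and 34.4 CPM and, with HU, 27.7, 53.1, 27.7 and 56.0 CPM. HU lay above control by 0.24 to 0.72 on the log2 scale in tags 2 and 4 and by -0.06 to 0.07 in tags 1 and 3, and the tag-block fit gave 0.28 (SE 0.09, adjusted p = 0.0806). Bcl2 gave -0.15 (SE 0.07, adjusted p = 0.235) by edgeR and was lower with HU in 6 of 8 tag pairs, and Mcl1 differed by 0.01 and was higher with HU in 4 of 8.

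No BH3-only gene passed the edgeR test for HU in HR- cells, and the lowest adjusted p among them was that of Bbc3. Bbc3 stood at 23.0 and 21.6 CPM in wild-type and 24.8 and 22.7 CPM in Brca2mut/WT cells (-0.11, adjusted p = 0.374) and was lower with HU in 7 of 8 tag pairs. Bcl2l11 went from 23.1 to 21.3 CPM in wild-type and from 18.6 to 22.4 CPM in Brca2mut/WT cells (0.07 over both). Within tags it was lower with HU in 4 of 4 wild-type pairs and higher in 4 of 4 Brca2mut/WT pairs. Pmaip1 at -0.52 (adjusted p = 0.447) and Bid at -0.03 were low throughout, and Bcl2l15 gave 0.25 (SE 0.08, adjusted p = 0.0911). Within wild-type tags 2 and 4, Bcl2l15 went from 2.31 to 9.64 CPM and from 2.92 to 10.2 CPM with HU, whereas in Brca2mut/WT cells it was higher with HU in tags 1 and 4 and lower in tags 2 and 3. The median over the 10 genes was 0.04, with 1 called higher and 0 lower.

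**Figure D3:**
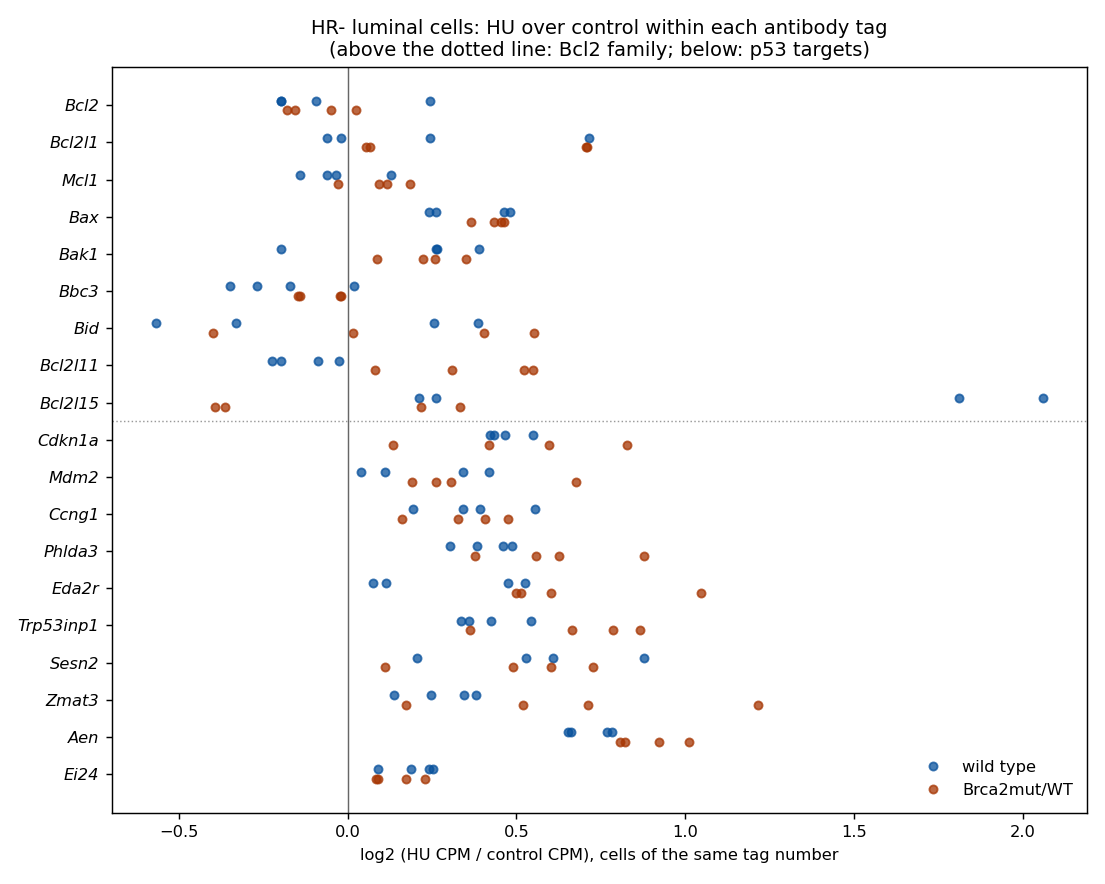
Log2 ratio of HU to control CPM in HR- luminal cells of the same tag number and genotype, 4 pairs a genotype, for 9 family genes (above the dotted line; Pmaip1 is left out for its low counts) and for 10 p53 target genes (below it). All 8 Bax points and all points of the p53 targets lie right of 0, whereas Bcl2l11 points lie left of 0 in wild-type and right of 0 in Brca2mut/WT cells.

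A list of 10 p53 target genes outside the family was set beside Bax. In HR- cells 6 of 10 rose with HU and 0 fell (median 0.38), and HU lay above control in 8 of 8 tag pairs for each of the 10. Markers of other cells moved in the same HR- cells. The 7 summed basal markers stood at 117 and 135 CPM in the controls and 145 and 159 CPM with HU, but singly they were not alike. Id4 was higher with HU in 8 of 8 tag pairs (1.49-fold and 2.07-fold in wild-type and Brca2mut/WT cells, tags weighted equally). Krt17, Acta2 and Pdpn were higher in 6 of 8, Krt5 in 4, Trp63 in 3 and Vim in 2. The epithelial marker Epcam (0.827-fold and 0.860-fold) and the stromal marker Dcn (0.338-fold and 0.334-fold) were lower in 8 of 8. Other epithelial markers were mixed, with Krt8 higher in 6 of 8 pairs, Cdh1 in 5 and Krt18 in 3. Of the stromal list, Pdgfra was lower in 6 of 8 and Col1a1 in 5. The part of these markers in the values of Bax and the p53 targets was not tested. Aen, an apoptosis-enhancing nuclease, rose by 0.75 (adjusted p = 0.000718), Sesn2, a stress-response gene that restrains mTOR, by 0.50 (adjusted p = 0.004), and Trp53inp1, which amplifies p53 activity, by 0.48 (adjusted p = 0.00208) by edgeR. With the tags apart all 10 were called, but 0 of 10 were with the looser cell filter and 4 of 10 without tag 1 or by DESeq2. The share of all genes called also moved. It was 7.37% with the tags apart, 0.0116% with the looser filter, 1.34% without tag 1 and 1.47% by DESeq2. None of 13 apoptosome and caspase genes, 8 death receptor genes, 4 other effector and BH3-only genes or 2 other guardian genes passed by edgeR or DESeq2, with 1, 1, 2 and 1 of them under an unadjusted p of 0.05, as were 20.7% of all genes. Among 5 further family genes Bnip3, a mitophagy gene induced by low oxygen, fell by 0.43 (adjusted p = 0.0095). Of 10 genes known to respond to cell dissociation 3 fell with HU, among them Atf3 (-0.56) and Fosb (-0.44), and whether this bears on the family genes was not tested.

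The Bax promoter is shown because Bax is a classical p53 target, and whether p53 bound this promoter here was not tested. In the 250 bases before the start of each RefSeq gene on GRCm38.p6, both strands were searched for the p53 half-site, and it was found in 1 of 9 family genes with a promoter searched, Bax, in 5 of 8 genes of the p53 list, and in 7.13% of 32851 promoters. Among 12 other family genes with a promoter it was found in 1, the BH3-only gene Bmf, which was lower with HU in 8 of 8 tag pairs, at 0.31 and 0.148 CPM in wild-type and 0.28 and 0.202 CPM in Brca2mut/WT cells with tags weighted equally (-0.89, adjusted p = 0.168 by edgeR on library sums). In Bax it lay 191 bases before the start, within chr7:45467065-45467124 on the minus strand, and capitals mark it in the 60 bases shown.
Bax: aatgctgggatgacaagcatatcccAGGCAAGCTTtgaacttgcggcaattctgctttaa
The match describes the letters of this window only. A gene was counted when any of its promoters held the half-site, whereas the 7.13% is a share of promoters. The half-site was absent from the 3 promoters of Bbc3.

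Basal and HR+ luminal cells were tested in the same way. In basal cells 0 of 10 family genes passed for HU by edgeR or DESeq2 (1 at an unadjusted p under 0.05, as were 14.7% of all genes), where 1.58% of all genes passed by edgeR. In HR+ cells 0 of 9 tested passed by either tool (0 unadjusted, against 9.19% of all genes), where 0.065% did by edgeR, and these sums came from 123 to 176 cells a library. Basal cells also differed in tags between libraries. Leaving out tag 4 left 428 of 709 basal cells in the wild-type control and 740 of 868 in the wild-type HU library. In Brca2mut/WT it left 215 of 320 in the control and 263 of 320 in the HU library. Values by tag are not given for basal cells. The difference of HU effects below was fitted on library sums only, and the part of the tags in it was not tested. Of the p53 list 1 of 10 genes was called in basal cells, and it was lower. None of the 10 had a positive value there (median -0.22). In HR+ cells 0 of the 10 were called (median -0.07). The difference of the HU effect between HR- and basal cells was called by edgeR for 0 of 10 family genes (2 unadjusted, against 11.6% of all genes) and 1.89% of all genes, with Bax at 0.35 (SE 0.10, adjusted p = 0.121) by edgeR, but for 7 of the 10 p53 targets, all with the higher value in HR- cells. The median of this difference over the 10 was 0.69, beside 0.38 for HU in HR- and -0.22 in basal cells. Lower values in basal cells are thus part of it.

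Within each genotype there is 1 library a condition and no test, and a gene was counted when its CPM was at least 25% above that of the other condition, with at least 10 CPM in either library. Intervals on these ratios are exact 95% intervals and cover counting error only. In HR- cells 1 of 8 family genes past the CPM floor was counted in the wild type, Bax at 0.55 (0.51 to 0.58), and 0 of 8 in Brca2mut/WT, beside 8.22% and 6.11% of all genes. In basal cells 0 of 8 and 1 of 8 were counted, beside 21.9% and 18.2%. The 1 gene was Bbc3 in Brca2mut/WT basal cells, at 16.7 CPM in the control and 10.1 CPM in the HU library (-0.72, -1.17 to -0.28). Pmaip1 was lower with HU in basal cells of both genotypes, but under the floor, at 3.46 and 1.41 CPM in the wild type.

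In HR+ cells 3 of 9 genes were counted in the wild type and 4 of 9 in Brca2mut/WT, beside 31.2% and 33.1% of all genes, shares close to those of the family. Pmaip1 went from 8.29 to 20.7 CPM in the wild type (1.32, 0.73 to 1.94) and from 20.1 to 14.6 CPM in Brca2mut/WT (-0.46, -1.07 to 0.14). Bcl2 went from 15.6 to 9.71 CPM in the wild type (-0.69, -1.31 to -0.08) and from 7.92 to 12.1 CPM in Brca2mut/WT (0.61, -0.19 to 1.43). In HR+ cells the tags differed in number between libraries, with 68 and 17 cells of tags 2 and 4 in the wild-type HU library against 21 and 52 in its control, and their part in these differences was not tested.

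**Figure D4:**
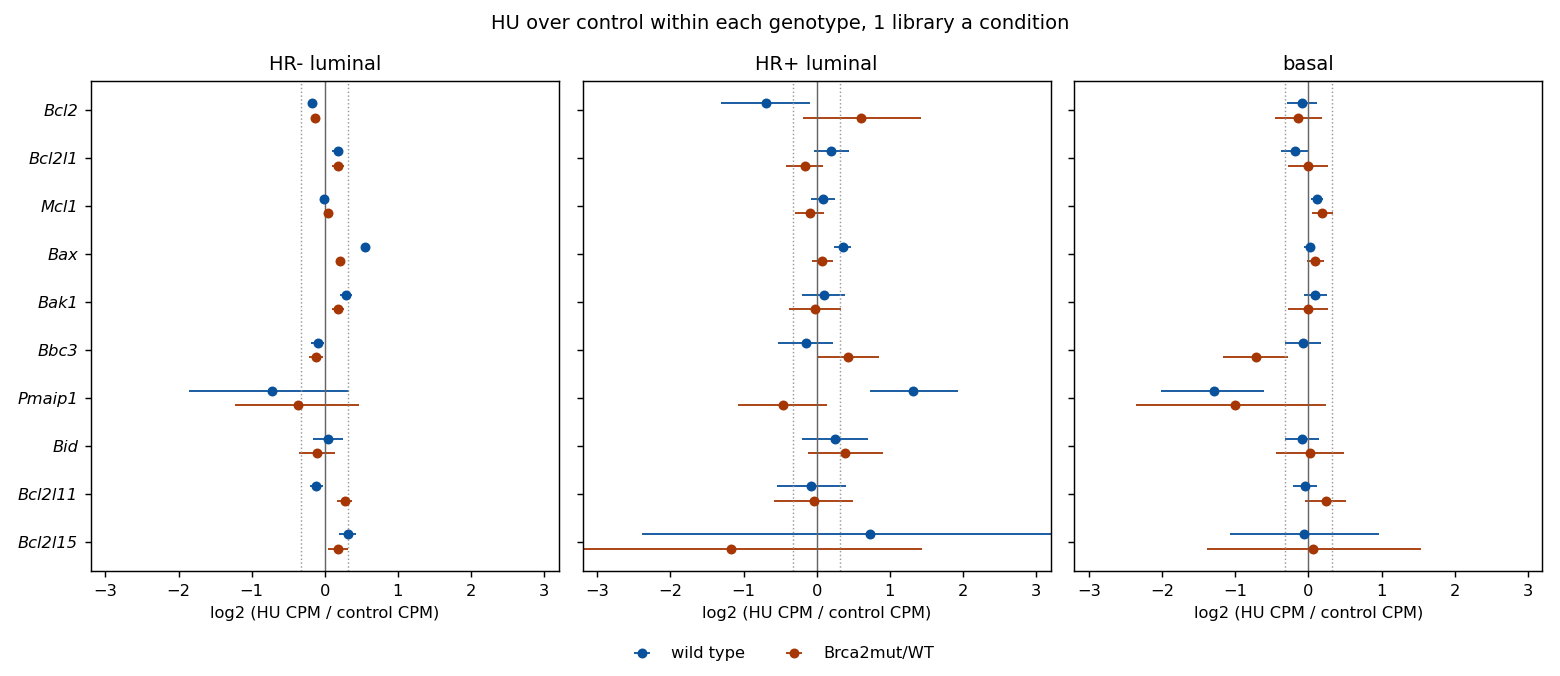
Log2 ratio of HU to control CPM within wild-type and within Brca2mut/WT cells of each lineage, 1 library a condition; bars are exact 95% intervals that cover counting error only and those of Bcl2l15 in HR+ cells run past the axis, and dotted lines mark a difference of 25%. Bax in wild-type HR- cells lies at 0.55 beyond the line, and the widest intervals are those of genes with few UMIs.

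For the genotype, 1 of the 10 genes passed in HR- cells, where 1.74% of genes did. Bcl2l15 was lower in Brca2mut/WT than in wild-type HR- cells by -0.41 (SE 0.08, adjusted p = 0.0195) by edgeR, at 9.60 and 10.9 against 11.8 and 14.7 CPM, with no overlap. With the tags apart, where 0.164% of genes were called, the value was -0.50 (SE 0.34, adjusted p = 0.709), and without cells of tag 2 it was -0.22 (adjusted p = 0.613). By edgeR 0 of 10 genes passed for genotype in basal cells where 1.61% of all genes did, 0 of 9 in HR+ cells (0.0186%) and 0 of 10 for the difference of the genotype effect between HR- and basal cells (3.41%). At an unadjusted p under 0.05 the counts were 2, 0 and 4, against 14.6%, 6.30% and 14.7% of all genes. DESeq2 also called 0 of the family genes for genotype in basal and HR+ cells.

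Because HU acts on cells that replicate DNA, cycling HR- cells, defined by at least 100 CPM of Mki67 and Top2a together, were compared with the other HR- cells of their library. There were 1012 cycling and 12996 non-cycling cells, and 47.3% of genes differed between them. With the looser cell filter, which has no upper gene limit, a library held 587 to 809 cycling and 4207 to 5397 non-cycling HR- cells. The kept cells numbered 202 to 292 and 2548 to 3917 a library, so proportionally more cycling cells were left out. Bcl2 held 61.6, 56.6, 68.5 and 58.6 CPM in cycling against 92.2, 81.5, 104 and 94.5 CPM in non-cycling cells of the 4 libraries, with no overlap. The edgeR difference was -0.72 (SE 0.05, adjusted p = 2.26e-11). Bcl2l1 was lower too, by -0.38 (SE 0.06, adjusted p = 4.04e-05), at 24.9 to 29.1 against 29.5 to 34.8 CPM, and Mcl1 differed by -0.04.

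The effectors were higher in cycling cells by library sums. Bak1 held 34.4, 39.6, 39.5 and 44.3 CPM against 22.3, 27.3, 23.7 and 27.3 CPM, again without overlap (0.53, SE 0.06, adjusted p = 2.74e-07 by edgeR). Bax differed by 0.16 (SE 0.05, adjusted p = 0.00643) by edgeR, but by -0.04 (adjusted p = 0.437) with the tags apart and 0.12 (adjusted p = 0.0936) without the wild-type control. Of the BH3-only genes Bcl2l11 was lower by -0.23 (SE 0.07, adjusted p = 0.0146; 0.0517 and 0.0507 without the wild-type control or the wild-type HU library) and Bbc3 (0.09), Bid (0.38, adjusted p = 0.0761, and 0.0265 without the Brca2mut/WT HU library) and Pmaip1 (-0.39, adjusted p = 0.697) did not pass. Of the 10 genes 2 were called higher and 3 lower, with a median of 0.03 beside -0.03 for all genes. Scaling by UMI totals moved that all-gene median to 0.09 and the share of calls that were higher from 49.1 to 65.8%. Among 13 apoptosome and caspase genes 5 were higher and 1 lower in cycling cells, with Cycs at 1.0.

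**Figure D5:**
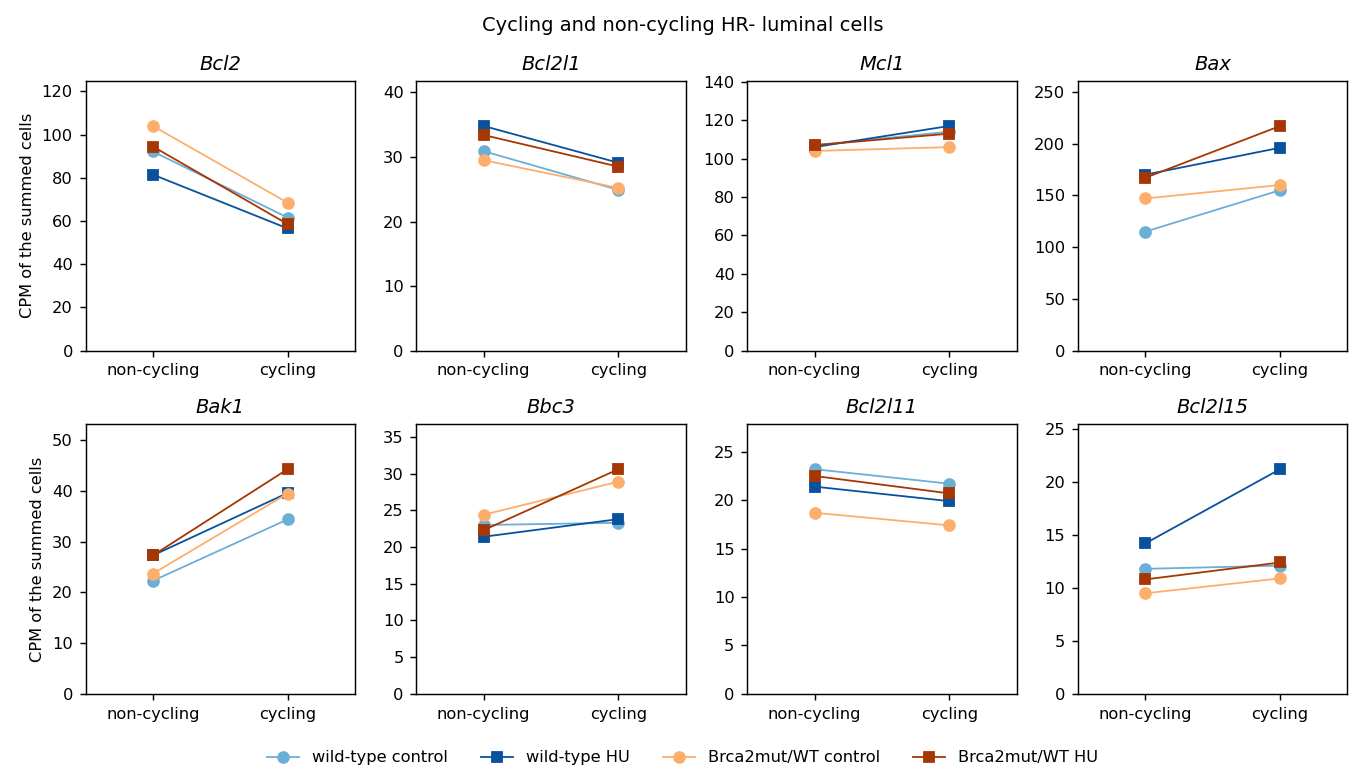
CPM of 8 of the genes summed over non-cycling and over cycling HR- luminal cells; each line joins the 2 sums of 1 library, and the axes start at 0. Bcl2 and Bcl2l1 are lower and Bak1 higher in cycling cells of all 4 libraries.

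Over the 12 sums of library and lineage, the genes whose log2(CPM + 1) followed that of Bcl2 most closely among 9608 genes were Stox2 (Pearson's r 0.996), St8sia6 (0.994) and Etv5 (0.994). For Bbc3 they were Pkig (0.982), Tmem161a (0.971) and Sirt5 (0.963), and for Bcl2l15 Plin2 (0.989), Kifc3 (0.987) and Prr5 (0.987). These 12 points share 4 libraries and fall into 3 lineages, so the values describe a common order of lineages.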

How the data were processed

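Organoid cells were profiled with 10x Chromium version 3 chemistry. The authors aligned reads to mm10 with Cell Ranger (6.0.2 per the labels, 6.1.1 per the file headers) and deposited UMI counts per gene and antibody tag for each library. Seurat 4.0 and R 4.1.3 are also named in the submitters' processing notes. From these counts, a cell was kept at 1000 to 6000 detected genes and less than 5% mitochondrial UMIs. No doublet caller was run, cells past both lineage gates were left out, and cells with at least 80% of tag UMIs from 1 tag were called single-tag (83.9 to 85.8% of kept cells). By lineage these were 12491 of 14008 HR-, 1643 of 2217 basal and only 348 of 569 HR+ cells. Lineage sums held 71024638 to 103837852 UMIs (HR-), 2731245 to 4220265 (HR+) and 6710879 to 19147961 (basal). No source names separate cultures or animals behind the tags, so p-values measure the spread between these libraries or tags, which may be technical.

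The 10 genes were named in every comparison, and of each further list (other family, caspase, death receptor, p53 target and dissociation genes) the counts and up to 3 genes with the largest change at 10 CPM or more. Members and lists were chosen with earlier results of these data known. Sums were tested with edgeR 4.0.16 (quasi-likelihood, TMM scaling, low-count filter, Benjamini-Hochberg threshold 0.05) in R 4.3.3. DESeq2 1.42.0, UMI totals, no low-count filter, a looser cell filter (under 10% mitochondrial UMIs, no upper gene limit), stricter gates, single-tag cells, each tag left out and each library left out were alternatives. Fits with each tag summed apart, and tags weighted equally, were chosen after seeing the data. On simulated counts 200 of 200 genes changed 2-fold were recovered in HR- against basal (13466 genes) and in the HU test in HR- cells (15634 genes). Unchanged genes called there numbered 9 and 6. Smaller changes, such as that of Bax with HU, and shifts in the shares of tags were not simulated. Python 3.11.15, numpy 2.4.6 and scipy 1.17.1 were used for the sums and intervals and matplotlib 3.10.9 for the plots. Library depth and UMIs limit precision as the intervals show, and sequences of Pmaip1 and the values of 1 further gene are not reported here.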

Additional observations from a re-analysis of the deposited data

Results flagged for a closer look

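Bcl2l11, which encodes the BH3-only protein Bim, moved in opposite directions with HU in HR- luminal cells of the 2 genotypes, at -0.12 (log2 of HU over control, 95% interval for counting error -0.20 to -0.03) in wild-type and 0.27 (0.17 to 0.37) in Brca2mut/WT cells. All 4 wild-type tag pairs lay below 0 and all 4 Brca2mut/WT pairs above 0, and with the tags weighted equally the folds were 0.913 and 1.30. There is 1 library a condition and the difference was not tested.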

How the results depend on the processing

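No paired analysis was possible because, for HU and genotype, each condition is 1 library, so that the groups compared share fewer than 2 replicate numbers. The lineage and cycling comparisons have the library as a block, and with the tags apart they block on library and tag together, while HU and genotype block on the tag. The cause of the changes below was not tested. The count of family genes called was, for HU in HR- cells (1 as reported), 0 with the looser cell filter and without tag 1, 2 with single-tag cells, non-cycling cells, without tag 4 and with the tags apart, and 3 with no low-count filter and with UMI totals. The share of all genes called, 4.93% as reported, was 0.0116% with the looser filter and 1.34% without tag 1. It was 8.43% with single-tag cells, 7.40% with non-cycling cells, 7.97% without tag 4 and 7.37% with the tags apart. No low-count filter gave 7.47% and UMI totals 9.33%. For genotype in HR- cells the count of family genes (1 as reported) was 0 with the looser filter, without tag 2 or tag 3, with DESeq2 and with the tags apart. The share of all genes, 1.74% as reported, was 0.447% with the looser filter, 0.394% without tag 2 and 2.87% without tag 3. It was 0.852% with DESeq2 and 0.164% with the tags apart. In basal cells the count was 1 for HU with no low-count filter (4.26% of all genes). It was 1 for genotype with single-tag cells (2.25%) and with no low-count filter (4.49%). HR+ against HR- cells gave 6 with the tags apart, where 54.4% of all genes were called. Cycling cells gave 3 to 6 over libraries left out, where 41.5 to 44.2% of all genes were called, with 3 without the wild-type control (41.5%). Genes past the 25% mark were 2 in wild-type HR- cells (looser filter, mean over cells, tags 1, 2 or 3 out, tags weighted equally), 5 in wild-type HR+ cells without tag 4 and 1 in wild-type basal cells (mean over cells, floor of 1 CPM). In Brca2mut/WT HR- cells they were 2 (looser filter), 1 (tag 1 or 3 out) and 3 (tags weighted equally), and in Brca2mut/WT basal cells 0 (looser filter), 2 (mean over cells, floor of 1 CPM, tag 1 out) and 3 (tag 3 or 4 out).

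Some log2 values changed sign, of which as reported Bax in cycling cells had passed the test and Pmaip1 and Bid in Brca2mut/WT HR+ cells the 25% mark. With the tags apart they were 0.24 for Bax in HR- against basal cells, 0.385 for Bcl2l15 in HR+ against basal cells, 0.008 for Bid and 0.057 for Pmaip1 with HU, -0.036 for Bak1 with genotype, and -0.013 for Bbc3 and -0.044 for Bax in cycling cells. Over libraries left out, Bax in HR- against basal cells ran from -0.131 to 0.09 and Pmaip1 in cycling cells from -0.815 to 0.087, both highest without the wild-type control. The looser filter gave 0.082 for Bid with HU, -0.032 for Bbc3 with genotype, -0.028 for Bcl2l15, -0.038 for Bbc3 and 0.058 for Pmaip1 in cycling cells, and -0.20 for Bid in Brca2mut/WT HR+ cells. Leaving out tags gave -0.023 for Mcl1 (tag 2) and 0.19 for Bid (tag 3) with HU, -0.013 for Bbc3 (tag 4) and -0.00 for Bak1 (tag 1) with genotype, and 0.37 for Pmaip1 (tag 4) in Brca2mut/WT HR+ cells. Single-tag cells gave -0.08 for Bid in Brca2mut/WT HR+ cells, and -0.001 for Bbc3 and 0.12 for Pmaip1 in cycling cells. Stricter gates gave -0.025 for Bak1 and -0.048 for Pmaip1 with genotype, and 0.001 for Mcl1, -0.17 for Bbc3 and 0.033 for Pmaip1 in cycling cells, and UMI totals 0.084 for Mcl1 in cycling cells.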
